A study of Canis lupus familiaris with 10 samples.

Results

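The Sm proteins B, D1, D2, D3, E, F and G and the LSM proteins LSM4, LSM10 and LSM11 form the rings that carry small nuclear RNAs, and their transcripts were followed here through PRMT5 inhibition in canine B-cell lymphoma cell lines. Members were taken as the probe sets that the platform annotation gives to exactly 1 gene symbol on this list of 10, with the brightest probe set standing for a symbol. This left 8 of the 10 genes, among 15947 symbols and 32391 probe sets measured in all. SNRPF was annotated only to a probe set that also carries another symbol and LSM11 to none in the annotation used here, so neither was analysed here.

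Seven-membered rings of Sm proteins close around the U1, U2, U4 and U5 small nuclear RNAs and make the core of the particles that remove introns. In human cells, PRMT5 and its partner WDR77 place symmetric dimethyl marks on arginines in the tails of SmB, SmD1, SmD3 and LSM4, and the marked tails are bound by the Tudor domain of SMN, whose complex loads the ring onto the RNA. LSM proteins build related rings. LSM4 belongs to the ring of U6 and to the cytoplasmic ring of mRNA decay, while LSM10 and LSM11 replace SmD1 and SmD2 in the U7 particle that trims histone mRNAs. The arrays read transcripts, so neither the proteins nor their methylation were measured.

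RNA came from CLBL-1 and 17-71, canine B-cell lymphoma lines labelled as derived from lymph node, each a single line treated in culture with 100 nM of the selective PRMT5 inhibitor that the labels call PR220 and the study C220. CLBL-1 gave 3 control and 2 treated arrays on day 2, and 17-71 gave 2 control and 3 treated arrays on day 4, with 1 array per sample. Since each line was collected on its own day, a difference between lines is also one between days, and the 2 cannot be told apart. The study describes biological triplicate experiments, but treated CLBL-1 and control 17-71 cells have 2 arrays each here. The labels name no separate cultures, so p-values measure only how far these samples spread, in part perhaps for technical reasons.

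Values were RMA log2 expression, a scale on which 1 unit is a doubling. Array medians lay between 3.71 and 3.79, and Pearson's r across probe sets was 0.990 to 0.993 within groups and 0.934 to 0.939 between lines. Of 7 measured B-cell markers, all 7 lay above the array median on every CLBL-1 array, but 4 did so on the control arrays of 17-71 and 3 on its treated arrays. There MS4A1 (CD20), CD79A and EBF1 read 2.19, 3.72 and 3.55 in control cells, against 12.03, 8.97 and 8.60 in CLBL-1, so these 3 markers were below or near the array median in the line labelled 17-71. The other 4, CD22, CD40, PAX5 and CD79B, lay above it in 17-71 controls, at 7.37, 6.93, 5.04 and 4.07. In CLBL-1 controls they were higher, at 10.21, 7.64, 8.89 and 7.70. Other lineages' markers went both ways between the control groups. Of 7 T and NK markers, 3 lay above the array median on every CLBL-1 control array and 2 on every 17-71 control array, with array means of 4.49 to 4.51 and 3.96 to 4.02. CD3G and CD3D were higher in CLBL-1 (8.96 against 4.61 and 6.83 against 2.75), CD2 was higher in 17-71 (8.18 against 4.89), and CD3E differed by -0.09. CD4, NKG7 and CD8A, near or below the array median, also differed toward 17-71 (-0.71, -0.56 and -0.25). Of 6 myeloid markers 1 and 2 lay above the median, with array means of 4.15 to 4.32 and 5.23 to 5.30: CD163 read 8.89 in 17-71 and 2.37 in CLBL-1, LYZ 10.79 and 11.13, and the other 4 differed by 0.35 or less. Of 6 stromal, endothelial and epithelial markers, 1 lay above the median on every CLBL-1 control array and 3 on every 17-71 control array. KDR (5.70 against 2.70), PECAM1 (4.07 against 2.71) and VWF (3.32 against 2.96) were higher in 17-71. COL1A2 and EPCAM differed by -0.25 and -0.22, and COL1A1 by 0.26 toward CLBL-1. These marker values move with every comparison between the lines, and their part in it was not tested.

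Expression of the Sm genes was slightly higher in treated than in control cells of both lines, by 1.05-fold to 1.25-fold apart from SNRPD2 in 17-71, and by less than the tests could call. In these bulk samples, more cells with a transcript and more of it per cell cannot be told apart. No member passed an adjusted p below 0.05 (limma, Benjamini-Hochberg over all probe sets) in CLBL-1, in 17-71 or for the mean of both responses. The share of all probe sets that passed was 0.133% in CLBL-1, 0% in 17-71 and 1.59% for the mean response. Treated arrays all lay above the control arrays for 5 of 8 members in CLBL-1, where 16.9% of all probe sets did so, and for 7 of 8 in 17-71, where 14.1% did. For 4 members, SNRPB, SNRPD3, SNRPE and SNRPG, this held in both lines, as it did for 3.08% of all probe sets, and for 0 members did the treated arrays all lie below the controls in either line (15.5% of all probe sets in CLBL-1 and 13.8% in 17-71).

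**Figure D1:**
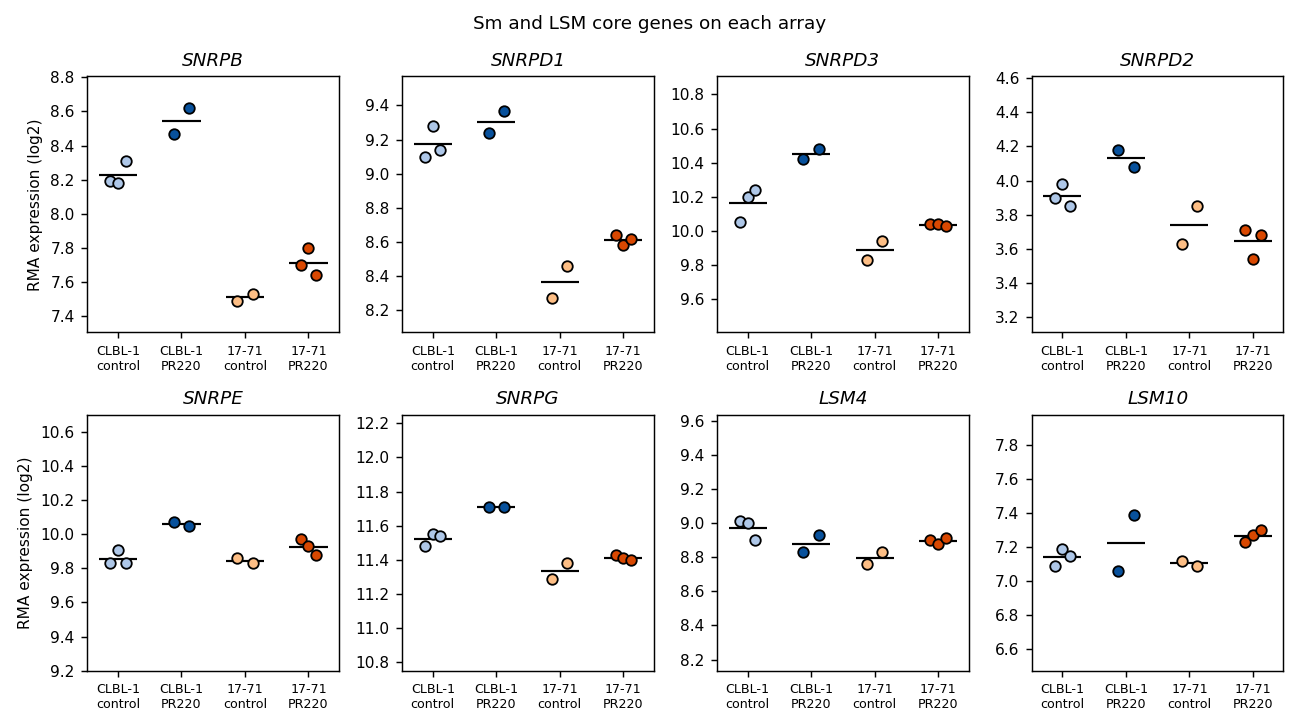
RMA expression (log2) of the 8 measured genes on each array, by line and treatment. Points are arrays (3 and 2 in CLBL-1, 2 and 3 in 17-71), lines are group means, and every panel spans 1.5 log2 units at its own level. SNRPB, SNRPD3, SNRPE and SNRPG have all treated points above the control points of the same line.

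SNRPB (probe set 14348129) encodes SmB/B', one of the ring proteins with an arginine-glycine tail. It read 8.19, 8.18 and 8.31 in CLBL-1 controls and 8.47 and 8.62 after PR220. In 17-71 it read 7.49 and 7.53 in controls and 7.70, 7.80 and 7.64 in treated cells. Neither line had an overlap between its groups, and the 2 lines did not overlap either. The log2 change was 0.32 in CLBL-1 (SE 0.10, adjusted p = 0.266), 0.20 in 17-71 (SE 0.09, adjusted p = 0.599) and 0.26 for the mean response (95% interval 0.12 to 0.41, adjusted p = 0.0917), the largest mean response of the 8 members. The mean response passed with dim probe sets removed, that is, those not above the array median on at least 2 arrays (adjusted p = 0.0288). It also passed with variances modelled on intensity (adjusted p = 0.0133). Under these settings 1369 of the 17981 kept probe sets and 1404 of all 32391 passed for the mean response. These counts are the background of later such calls too.

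SNRPD3 (probe set 14359121) encodes SmD3, which pairs with SmB in the ring and has a tail of the same kind. CLBL-1 controls read 10.05, 10.20 and 10.24, and the treated arrays 10.42 and 10.48. In 17-71 the controls read 9.83 and 9.94 and the treated arrays 10.04, 10.04 and 10.03, so that again every treated array was the higher. Its log2 change was 0.29 in CLBL-1 (SE 0.10, adjusted p = 0.300), 0.15 in 17-71 (SE 0.09, adjusted p = 0.657) and 0.22 for the mean response (95% interval 0.08 to 0.35, adjusted p = 0.130). The same 2 settings brought it past the threshold, at adjusted p = 0.0423 and adjusted p = 0.0114. In the RefSeq table of the dog, SNRPD3 overlaps GUCD1 and LOC102157022, and SNRPB overlaps LOC111092082. Whether the probes of SNRPD3 and SNRPB read those genes too was not tested.

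SNRPD1 (probe set 14436132) encodes SmD1, the third Sm protein with a methylated tail. In CLBL-1 it read 9.10, 9.28 and 9.14 in controls and 9.24 and 9.37 in treated cells, and the groups overlapped. The 17-71 controls read 8.27 and 8.46 and the treated arrays 8.64, 8.58 and 8.62, with no overlap. This was the member with the largest change in 17-71 (log2 change 0.24, 95% interval -0.01 to 0.50, adjusted p = 0.560), and in CLBL-1 it changed by 0.13 (95% interval -0.12 to 0.39, adjusted p = 0.622).

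SNRPE and SNRPG encode SmE and SmG, small ring subunits without such a tail. Both have pseudogene copies in the human genome, and whether the probes here read such copies was not tested. SNRPE (probe set 14400491) read 9.83, 9.91 and 9.83 in CLBL-1 controls against 10.07 and 10.05 in treated cells, and 9.86 and 9.83 against 9.97, 9.93 and 9.88 in 17-71. SNRPG (probe set 14273592) read 11.48, 11.55 and 11.54 against 11.71 and 11.71 in CLBL-1, and 11.29 and 11.38 against 11.43, 11.41 and 11.40 in 17-71. Both genes were higher on every treated array of either line, by 0.20 and 0.19 in CLBL-1 and by 0.08 and 0.07 in 17-71 on the log2 scale. Their mean responses of 0.14 (95% interval 0.03 to 0.26) and 0.13 (0.02 to 0.25) did not pass at adjusted p = 0.251 and adjusted p = 0.281. With variances modelled on intensity, both passed for the mean response (adjusted p = 0.0251 and 0.0148), and SNRPG and SNRPD3 also did in CLBL-1 alone (adjusted p = 0.0307 and 0.0442).

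SNRPD2 (probe set 14259404) encodes SmD2, the partner of SmD1. Its values lay close to the array median: 3.90, 3.98 and 3.85 in CLBL-1 controls, 4.18 and 4.08 in treated cells, 3.63 and 3.85 in 17-71 controls, and 3.71, 3.54 and 3.68 in treated cells. The CLBL-1 groups did not overlap (log2 change 0.22, adjusted p = 0.386) and the 17-71 groups did (log2 change -0.09, adjusted p = 0.845). The second of its 2 probe sets (14287700) was dimmer still, at 2.75 to 2.88 on 9 arrays and 1.95 on 17-71 control replicate 1. In CLBL-1 this probe set had overlapping groups (log2 change 0.04, adjusted p = 0.893), so the separation there rests on the brighter one. With both probe sets averaged the 17-71 change turned to 0.19, so no direction can be read for this gene there.

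The 2 LSM genes had overlapping groups in CLBL-1 and higher treated arrays in 17-71. LSM4 (probe set 14329926) read 9.01, 9.00 and 8.90 in CLBL-1 controls and 8.83 and 8.93 after treatment, an overlap, and 8.76 and 8.83 against 8.90, 8.88 and 8.91 in 17-71, where the treated arrays were the higher. Its log2 changes of -0.09 in CLBL-1 (95% interval -0.32 to 0.13) and 0.10 in 17-71 (95% interval -0.12 to 0.31) gave a mean response of 0.00, which is without direction. LSM10 (probe set 14294098) read 7.09, 7.19 and 7.15 in CLBL-1 controls, and its treated arrays lay on either side, at 7.06 and 7.39. In 17-71 LSM10 was higher on all treated arrays (7.23, 7.27 and 7.30) than on the controls (7.12 and 7.09), with a log2 change of 0.16 (95% interval -0.05 to 0.38, adjusted p = 0.627). The CLBL-1 change of 0.08 became -0.09 without treated replicate 2.

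**Figure D2:**
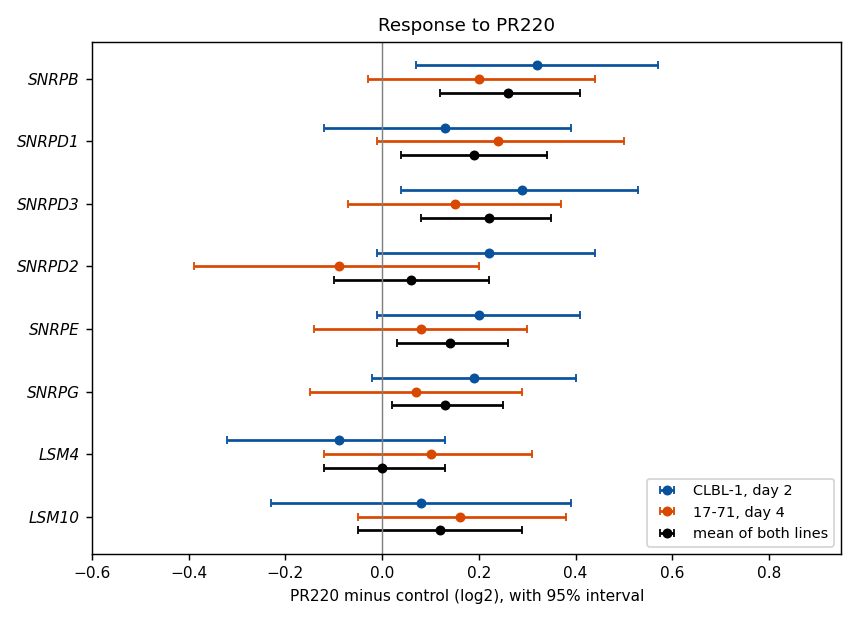
Change on PR220 (treated minus control, log2; points) with its 95% interval (bars) for each gene in CLBL-1, in 17-71 and for the mean of both lines. For the mean response the intervals of SNRPB, SNRPD1, SNRPD3, SNRPE and SNRPG lie above 0, and those of SNRPD2, LSM4 and LSM10 include it.

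As a group, 7 of 8 members had a positive change in each line, with a median log2 change of 0.20 in CLBL-1 and 0.12 in 17-71, where all probe sets had a median of 0.01 in both and 51.2% and 52.1% of them were positive. For the mean response all 8 were positive, LSM4 by less than 0.01, with a median of 0.14, against 53.1% of all probe sets positive and a median of 0.01. Without adjustment, 5 members had p below 0.05 for the mean response, all higher (6.93% of all probe sets), as did 2 in CLBL-1 (6.83%) and 0 in 17-71 (4.08%). In limma the smallest adjusted p of a member was 0.266 in CLBL-1 and 0.560 in 17-71. These counts describe the list and are not a test of it.

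Response sizes were compared between the lines in the joint fit. No member differed (limma, smallest adjusted p = 0.462, 0 members also at an unadjusted p below 0.05), while 0.0309% of all probe sets passed and 11.3% had an unadjusted p below 0.05. SNRPD2 had the widest gap, 0.31 higher in CLBL-1 (95% interval -0.01 to 0.63), which became -0.06 with its probe sets averaged. LSM4 had the most negative, at -0.19 (95% interval -0.44 to 0.05). For SNRPB, SNRPD3, SNRPE and SNRPG the CLBL-1 response was the larger by 0.12 to 0.14 on the log2 scale, each with an interval that spans 0, so a difference of this size could not be told from none with these arrays.

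Members were also compared array by array, after each gene was centred on its mean within a line. Over the 10 arrays the closest pair was SNRPD3 and SNRPG (Pearson's r = 0.97), followed by SNRPB with SNRPD3 (0.91) and SNRPE with SNRPG (0.89). LSM4 had a negative r with SNRPB, SNRPD2, SNRPD3, SNRPE and SNRPG, from -0.15 to -0.38, and a positive one with SNRPD1 (0.42) and LSM10 (0.41). In all, 22 of 28 pairs were positive, with a median of 0.55. The points share arrays and treatment groups, so these values describe the pattern and test nothing.

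**Figure D3:**
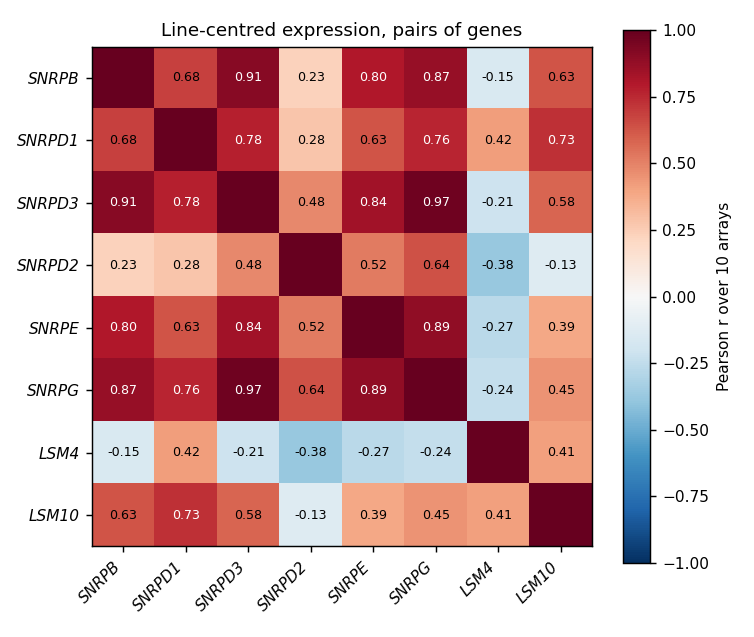
Pearson's r between pairs of genes over the 10 arrays, after centring each gene within its line. The block of SNRPB, SNRPD3, SNRPE and SNRPG runs from 0.80 to 0.97, and LSM4 stands apart from it at -0.15 to -0.27.

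Outside the list, the genes closest to the mean profile of the 6 measured Sm genes, of 15939 symbols ranked over the same 10 arrays, were VBP1, a prefoldin subunit (r = 0.977), CDC26, a subunit of the anaphase-promoting complex (0.977), and PPP1CC, a catalytic subunit of protein phosphatase 1 (0.974). CACYBP, a calcyclin-binding protein (0.966), and BLMH, bleomycin hydrolase (0.963), followed. Centring was within lines only, so the shift between treated and control arrays helped choose these 5 genes. Their positive responses on these arrays are therefore no separate result. Of these 5, CDC26 passed for the mean response (log2 change 0.32, 95% interval 0.18 to 0.45, adjusted p = 0.0408), and leaving out any 1 of the 10 arrays ended that call (adjusted p = 0.0696 to 0.135). VBP1 and BLMH passed with dim probe sets removed (adjusted p = 0.0421 and 0.0247). With variances modelled on intensity, VBP1, BLMH, PPP1CC and CACYBP passed (adjusted p = 0.0244, 0.0185, 0.0118 and 0.0216).

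Between untreated cells of the lines, SNRPD1 and SNRPB were higher in CLBL-1 under every scaling run, and SNRPD3 in the deposited values. The lines differed at 31.5% of all probe sets (limma, joint fit, Benjamini-Hochberg), 16.8% as higher in CLBL-1, and 3 of 8 members passed, a share near that of all probe sets. The CLBL-1 mean was the higher for 8 of 8 members (50.6% of all probe sets). SNRPD1 was 1.75-fold higher (log2 difference 0.81, 95% interval 0.59 to 1.02, adjusted p = 0.000174) and SNRPB 1.64-fold (0.72, 95% interval 0.51 to 0.92, adjusted p = 0.000255). SNRPD3 was 1.21-fold higher (0.27, 95% interval 0.08 to 0.47, adjusted p = 0.0375). For SNRPG, LSM4 and SNRPD2 the values were 0.18 (adjusted p = 0.0912), 0.17 (adjusted p = 0.126) and 0.17 (adjusted p = 0.244), and for LSM10 and SNRPE 0.04 and 0.01.

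These differences moved with the scaling. The brightest 10% of all probe sets had a median difference of 0.125 toward CLBL-1 in the deposited values, 0.040 after quantile normalization and -0.020 after cyclic loess. SNRPD1 kept 0.73 and 0.67 and SNRPB 0.67 and 0.59, and both stayed past the threshold, as they did without any 1 array. SNRPD3 read 0.14 and 0.12 (adjusted p = 0.271 and 0.351) and lost its call without any 1 of the arrays other than CLBL-1 control replicate 1 (adjusted p = 0.0522 to 0.201). SNRPG read 0.04 and 0.01 and LSM4 0.09 and 0.04, neither past the threshold. SNRPE turned to -0.10 and -0.13, and LSM10 to -0.06 after cyclic loess.

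**Figure D4:**
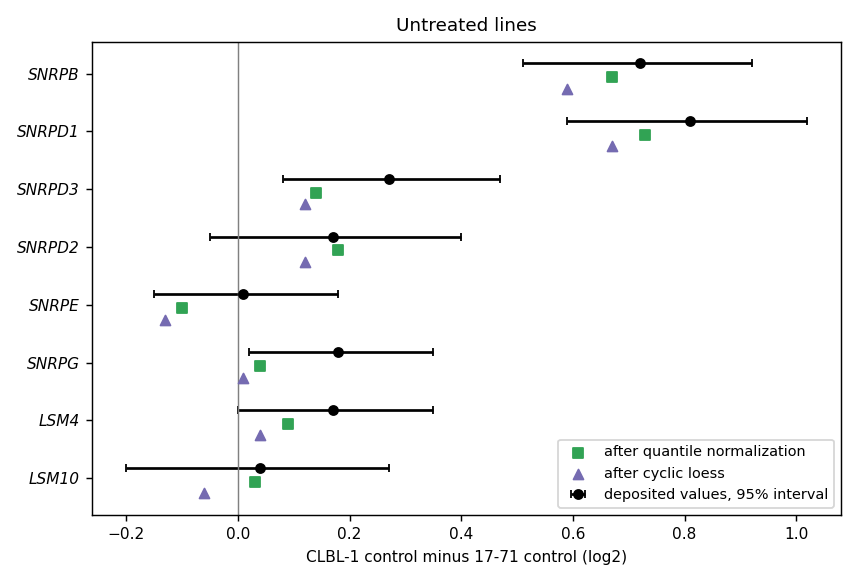
Difference between untreated CLBL-1 and untreated 17-71 (log2) for each gene, in the deposited values (black points with 95% interval) and after quantile normalization or cyclic loess of the same values. SNRPB and SNRPD1 stay at 0.59 or above under each scaling, and the other 6 genes at 0.27 or below.

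SNRPN, which encodes SmN, a close relative of SmB that can take its place in the ring, read 7.28, 7.40 and 7.26 in CLBL-1 controls and 2.95 and 3.05 in 17-71 controls, the latter below the array median. The measured values differed by 4.31 on the log2 scale (adjusted p = 4.38e-08). No detection calls were used here, so whether the 17-71 signal stood above background is not known, and the size of the difference is not fixed by these values. In treated 17-71 cells SNRPN read 3.28, 3.70 and 3.65, above both controls but still at or below the array median (log2 change 0.54, adjusted p = 0.507). The treated arrays of CLBL-1 read 7.26 and 7.30 and overlapped the controls. The responses of the lines differed by -0.57 (95% interval -0.98 to -0.16), which did not pass over all probe sets (adjusted p = 0.302). SNRPN and SNRPB are alike in sequence, and whether the probes of one read transcripts of the other was not tested.

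The other LSM proteins complete the U6 and decay rings around LSM4 or act in mRNA storage. Of 11 measured genes of this list, SmN included, 0 passed for the mean response (1.59% of all probe sets) and 9 were positive (53.1%), with a median of 0.05. LSM6 (0.26, adjusted p = 0.0726), LSM3 (0.21, adjusted p = 0.222) and LSM7 (0.18, adjusted p = 0.180) had the smallest p beside SNRPN (0.26, adjusted p = 0.239). LSM5, which sits with these 3 and LSM4 in both rings, read 0.03 (adjusted p = 0.922). LSM6 passed with dim probe sets removed (adjusted p = 0.020) and with variances modelled on intensity (adjusted p = 0.0192). LSM6 had all treated arrays above the controls in both lines (0.40 in CLBL-1 and 0.12 in 17-71), as did 3.08% of all probe sets.

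Genes that methylate and load the Sm proteins had changes of either sign. Of 14 measured genes of the methylosome and the SMN complex, 1 passed for the mean response, where 1.59% of all probe sets did. GEMIN6, an SMN complex subunit with an Sm-like fold, rose by 0.30 (95% interval 0.18 to 0.41, adjusted p = 0.0281), with CLBL-1 at 5.91, 5.85 and 5.92 in controls and 6.46 and 6.50 in treated cells, while 17-71 read 6.43 to 6.51 on all arrays. The responses of GEMIN6 in the lines differed by 0.58 (adjusted p = 0.121), and its mean-response call ended without any 1 array (adjusted p = 0.0602 to 0.101). The difference between the GEMIN6 responses passed with dim probe sets removed (adjusted p = 0.0276) and with variances modelled on intensity (adjusted p = 0.0335). In CLBL-1 alone GEMIN6 did not pass (log2 change 0.59, adjusted p = 0.0917), but did under these 2 settings and in a joint fit of all arrays (adjusted p = 0.0246, 0.011 and 0.00796). SMN (0.23, adjusted p = 0.0701) and PRMT7, an arginine methyltransferase (0.26, adjusted p = 0.0731), had positive values and WDR77 a negative one (-0.32, adjusted p = 0.0638), none past the threshold. All 3 passed under the settings that called SNRPB and SNRPD3, at adjusted p = 0.0164, 0.0204 and 0.0204 with dim probe sets removed and 0.00324, 0.00964 and 0.0107 with variances modelled on intensity. WDR77 read 7.26, 7.32 and 7.29 in CLBL-1 controls and 6.84 and 6.74 in treated cells, a change of -0.50 (adjusted p = 0.117). This change passed under the settings that called GEMIN6 in CLBL-1, in the same order (adjusted p = 0.0345, 0.0109 and 0.0448). In 17-71 WDR77 read 7.57 and 7.63 against 7.29, 7.55 and 7.54, so its treated arrays were the lower in both lines. Each line counted alone, this held for 15.5% of all probe sets in CLBL-1 and 13.8% in 17-71. The share that was lower in both lines at once is not given here, so the pattern has no matching background.

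PRMT5 itself, the inhibited enzyme, read 8.77, 8.70 and 8.73 in CLBL-1 controls and 8.53 and 8.39 after treatment, with no overlap (log2 change -0.27, adjusted p = 0.292). In 17-71 the controls read 7.72 and 7.86 and the treated arrays 7.84, 7.69 and 7.75, which overlapped. It was 1.92-fold higher in CLBL-1 than in 17-71 controls (log2 difference 0.94, adjusted p = 4.59e-05), beside the higher SNRPB and SNRPD1 there. Its transcript does not show whether the inhibitor acted. On immunoblots the study reports less symmetric dimethylarginine in both lines at this dose and on these days. CLNS1A, which encodes pICln, the chaperone that holds Sm proteins for methylation, was picked out after its values were seen. It read 2.95, 2.68 and 3.51 in CLBL-1 controls and 4.09 and 4.01 in treated cells, on either side of the array median. In 17-71 it stayed below that median, at 1.58 to 2.56, and its mean response of 0.72 did not pass (adjusted p = 0.122).

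SMNDC1, a splicing factor whose Tudor domain binds dimethylated arginine, was the other pathway gene that passed for the mean response (log2 change 0.38, 95% interval 0.23 to 0.54, adjusted p = 0.0345). It read 7.45, 7.55 and 7.48 in CLBL-1 controls against 8.19 and 8.02 in treated cells (log2 change 0.61, adjusted p = 0.107), and 7.59 and 7.39 against 7.70, 7.58 and 7.63 in 17-71, where the groups overlapped. Leaving out any 1 array ended the mean-response call too (adjusted p = 0.0602 to 0.139). In CLBL-1 alone SMNDC1 passed with dim probe sets removed, with variances modelled on intensity and in a joint fit of all arrays (adjusted p = 0.0334, 0.00611 and 0.0212). SND1, the other Tudor gene measured, had a mean response of 0.01.

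Downstream and neighbouring steps showed 0 calls for the mean response with the main limma settings, where 1.59% of all probe sets passed. Among 6 genes of snRNA export, cap trimethylation and import, 3 were positive, and TGS1, the cap methylase (0.18), COIL, the scaffold of Cajal bodies (0.14), SNUPN, the import adaptor snurportin (-0.10), and KPNB1, importin beta (-0.03), had the smallest p. TGS1 alone reached an unadjusted p below 0.05, as higher, which 6.93% of all probe sets did. Among 11 proteins specific to single particles 8 were positive, led by SNRNP35 (0.31), SNRNP40 of U5 (0.22) and SNRNP27 (0.21), whereas SNRNP25, which belongs with SNRNP35 to the U11/U12 particle of minor introns, read -0.27. Of these 11, 3 higher and 1 lower gene reached an unadjusted p below 0.05, as 6.93% and 7.55% of all probe sets did. Among 8 partners of U7 and of histone mRNA processing 6 were positive, led by CASP8AP2 (0.22), CSTF2 (0.16), CPSF3, the endonuclease (0.10), and SYMPK, the symplekin scaffold (0.09). CSTF2 alone of these reached an unadjusted p below 0.05, also as higher (6.93% of all probe sets). With dim probe sets removed TGS1 (adjusted p = 0.0467), SNRNP35 (0.0181), SNRNP40 (0.028) and SNRNP25 (0.0359) passed, as they did with variances modelled on intensity (0.0301, 0.0141, 0.0131 and 0.0432), and SNRNP35 also passed after quantile normalization (0.049).

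**Figure D5:**
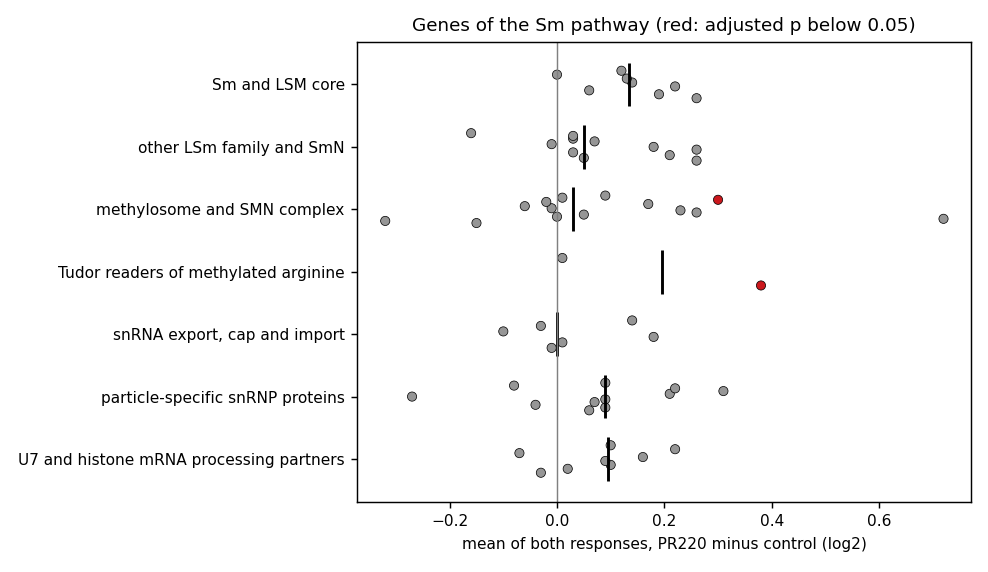
Mean of both responses (treated minus control, log2) for each measured gene of 7 lists. Points are genes, vertical bars list medians, and red marks an adjusted p below 0.05 over all probe sets (GEMIN6 and SMNDC1). All points of the Sm and LSM core list lie at or above 0, with a median of 0.14.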

How the data were processed

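Total RNA of 10 samples was amplified, labelled and hybridised to Affymetrix canine whole-transcript gene arrays. The values the authors deposited are RMA summaries of each probe set on a log2 scale. Affymetrix Expression Console and limma stand beside RMA in the submitters' processing notes. Per the study's methods RMA was run in R. Filters, and whether the lines shared 1 normalisation, were not given in the sources used here. RMA gives the arrays like distributions, so a change in total RNA per cell would not show. Arrays have no read depth, and their number limits the precision.

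The platform annotation gave 1 symbol to 16545 probe sets, several to 370 and none to 15476. Of those with 1 symbol, 15820 matched a gene ID in the RefSeq table of UU_Cfam_GSD_1.0, and 0 symbols changed. No coordinates or sequences are given, since no genome of the arrays' build was used here. Values were identical in 0 pairs of arrays. Across probe sets, 1573 of the 32391 repeated the values of an earlier one, and 0 of the measured members shared their values with another probe set. Repeats were kept in every adjustment and background share.

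Tests used the functions lmFit and eBayes of limma 3.58.1 (R 4.3.3, two-sided) on all 32391 probe sets, and an adjusted p below 0.05 was a call. The response of a line came from a fit of that line's arrays (residual df 3). The mean of both responses, their difference and the difference between controls came from a joint fit of the 4 groups (residual df 6). Code was tested on simulated data. Probe sets, not genes, are the unit of every background share.

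Genes named are the 10 listed, PRMT5, up to 4 per further list with the smallest p for the mean response, and the 5 whose line-centred profile over the arrays had the highest Pearson's r with that of the Sm genes. Named outside this rule, after their values were seen, were CLNS1A, LSM5 and the markers. Marker lists covered B, T and NK, myeloid, stromal, endothelial and epithelial, and erythroid cells. Members and lists were chosen with earlier results of these data known. Alternatives were the joint fit for single lines, an intensity trend with robust variances, quantile normalization, cyclic loess, a filter (above the array median on at least 2 arrays), a replicate block, averaged probe sets and leaving out each array.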

Additional observations from a re-analysis of the deposited data

How the results depend on the processing

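Of 1296 gene values under alternatives, 1179 kept direction and side of the threshold and 25 reversed, 0 of them called. Where a value moved, the cause was not tested. A joint fit of all arrays raised the probe sets called in CLBL-1 from 43 to 607 and in 17-71 from 0 to 15. An intensity trend with robust variances gave 1310 and 35, 1404 for the mean response (from 515) and 288 for the difference between responses (from 10). It called 2 members in CLBL-1, 4 for the mean response and 5 between controls, where 10588 of all 32391 probe sets passed. The filter on dim probe sets, which kept 17981, gave 655 in CLBL-1, 1369 for the mean response and 164 for the difference between responses. With it, 2 members were called for the mean response and 5 between controls. Of the 17981 probe sets kept, 10158 passed between controls, so the members' share was near that of all kept. The filter added SNRPG and LSM4 between controls, which read 0.01 and 0.04 there after cyclic loess. Quantile normalization and cyclic loess took the members' median difference between controls from 0.18 to 0.12 and 0.08, SNRPE to -0.10 and -0.13, and the LSM4 mean response to -0.01 and -0.02. Cyclic loess also turned LSM10 between controls to -0.06 and the SND1 mean response to -0.01. Averaging probe sets gave a median of 0.23 between controls and of 0.03 between responses (from 0.12), and turned SNRPD2 to 0.19 in 17-71 and to -0.06 between responses.

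Same-numbered replicates deviated together by r = -0.03 to 0.01, so the numbers were not taken to pair samples. With the replicate block, 0 probe sets were called in CLBL-1, for the mean response and for the difference between responses, the LSM4 mean response was -0.02, and GEMIN6, SMNDC1 and CDC26 lost their calls (adjusted p = 0.369, 0.361 and 0.365). Members called stayed at 0, and at 3 between controls. For the responses the block was a set of fixed terms, which left fewer residual df than the main fits. The third replicate of each line also had no partner in the other group. Whether the calls were lost for these reasons or through pairing was not tested. Between controls the block was a random effect instead (consensus correlation 0.0128).

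With 1 array left out, the count of probe sets called was 0 in each line under every such fit, and ranged from 155 to 305 for the mean response, 0 to 2 for the difference between responses and 8466 to 10104 between controls. Members called stayed at 0 for the responses and were 2 to 3 between controls. The members' median ranged from 0.07 to 0.12 between responses and from 0.14 to 0.26 between controls. Values that reversed ranged from -0.09 to 0.25 (LSM10) and -0.05 to 0.02 (SNRPN) in CLBL-1. In 17-71 they ranged from -0.20 to 0.02 (SNRPD2), -0.11 to 0.04 (PRMT5) and -0.01 to 0.03 (GEMIN6), and for the mean response from -0.02 to 0.03 (LSM4) and -0.02 to 0.05 (SND1). LSM10 ranged from -0.25 to 0.09 between responses and SNRPE from -0.01 to 0.03 between controls. Groups of 2 or 3 arrays limit every test, and SNRPD2, CLNS1A and SNRPN in 17-71 were read near or below the array median.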
